A study of Mus musculus with 19 samples.

Results

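The 10 imprinted genes H19, Igf2, Meg3, Rian, Dlk1, Peg3, Cdkn1c, Grb10, Plagl1 and Igf2r were followed in mouse endometrium, out of 49089 genes in the count table. They were chosen by name, as well known imprinted genes of fetal and placental growth, with earlier results of these data known. They were matched to the table through GENCODE symbols of the GRCm38 build. All 10 were found, and 9 passed the filter on low counts (at least 3 counts per 1000000, CPM, in at least 3 libraries), as 17222 genes did in all. Dlk1 did not pass and is described by its counts.

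RNA-seq was performed on endometrium scraped from the myometrium of adult wild-type C57Bl/6 females. The CONT group (n = 3 libraries) was made up of unmated estrous females. INT females (n = 4) had been mated to intact Balb/c males and were killed on day 3.5 post-coitum (pc). SVX, SVX_VAS and VAS females (n = 4 each) were killed at the same time, and their Balb/c partners were vasectomised, seminal vesicle-deficient or both. The sample titles and the column names disagree on which of the 3 groups had which surgery, so the groups are called by their column names and no surgery is assigned. The study describes its libraries as pooled samples and biological replicates. CONT differed from every other group in cycle stage, day, mating and, per the study's methods, time of day of collection (late evening in CONT, noon on day 3.5 pc), so these cannot be told apart, and day 3.5 pc stands before implantation.

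Total counts ran from 12661266 to 31781270 over the 19 libraries, with 15487788 to 31781270 in CONT and 14201095 to 17420572 in INT. VAS replicates 2 and 3 stood apart from the rest. They lay at 189 and 190 on the first principal component, which held 48.9% of the variance, while the others lay between -79.4 and -1.22. In them Malat1, a nuclear non-coding RNA, was at 544 to 545 CPM, against 8210 to 14000 CPM in all other libraries, CONT included. Antisense genes took 0.466% to 0.47% of counts in them, against 1.28% to 1.39% in all others. The calls and fold changes of the members in VAS are therefore given with and without these libraries. On the second component, with 38.8% of the variance, VAS replicates 1 and 4 lay at 21.3 and -56.3. INT replicates 1 and 4 lay at 22 and -54.6 there. VAS values without replicates 2 and 3 thus rest on 2 libraries that differ widely. Of the 7 endometrium markers, all 7 were measured, with a summed level of 2490 to 3010 CPM in CONT and 1780 to 2560 CPM in INT. It was 942 and 960 CPM in VAS replicates 2 and 3, below every other mated library (1780 to 2580 CPM). The summed level of the 8 stroma markers was 1810 and 1930 CPM in the same pair, against 5950 to 8140 CPM in the other mated libraries and 4390 to 4670 CPM in CONT. The part of these markers in the VAS results was not tested.

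Genomic imprinting is the silencing of either the maternal or the paternal copy of a gene by DNA methylation laid down in the egg or sperm. Imprinted genes lie in clusters, in which a methylated control region and a long non-coding RNA set the state of several neighbours. In the mouse, paternally expressed genes such as Igf2, Peg3 and Dlk1 tend to promote fetal growth, and maternally expressed genes such as H19, Cdkn1c, Grb10 and Igf2r tend to restrain it. The counts used here do not separate the parental copies, so they give the level of each gene and nothing on its imprint.

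The regions upstream of these genes are shown first, because the members differ in CpG, the dinucleotide that carries the methylation. Promoter windows of 300 bases, from 250 before to 50 after an annotated transcription start, were taken from RefSeq (GRCm38.p6). Whether each annotated start is a promoter of its own was not tested. Of the 10 genes, 8 had a window and some had several, 13 windows in all. H19 and Cdkn1c were not among them. Over all 32851 mouse windows the median was 7 CpG, with quartiles of 3 and 20. A window of Meg3 and the windows of Rian and Igf2r are printed, Meg3 and Rian because they lie in the same cluster and their ratio is reported, and Igf2r because it was the tested member that was not called. Capitals mark each CG.
Meg3, chr12:109540746-109541045, plus strand: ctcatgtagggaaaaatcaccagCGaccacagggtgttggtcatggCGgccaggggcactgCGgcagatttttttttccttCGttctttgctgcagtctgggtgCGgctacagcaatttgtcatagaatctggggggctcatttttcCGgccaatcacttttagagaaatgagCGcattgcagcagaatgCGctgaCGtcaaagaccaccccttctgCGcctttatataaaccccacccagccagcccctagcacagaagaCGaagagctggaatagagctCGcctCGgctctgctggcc
Rian, chr12:109603695-109603994, plus strand: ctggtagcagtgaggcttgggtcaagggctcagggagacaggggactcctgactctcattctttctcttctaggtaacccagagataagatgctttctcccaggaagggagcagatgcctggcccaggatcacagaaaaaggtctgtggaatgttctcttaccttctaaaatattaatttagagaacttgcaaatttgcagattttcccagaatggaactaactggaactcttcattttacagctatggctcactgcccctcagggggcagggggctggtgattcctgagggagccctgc
Igf2r, chr17:12769657-12769956, minus strand: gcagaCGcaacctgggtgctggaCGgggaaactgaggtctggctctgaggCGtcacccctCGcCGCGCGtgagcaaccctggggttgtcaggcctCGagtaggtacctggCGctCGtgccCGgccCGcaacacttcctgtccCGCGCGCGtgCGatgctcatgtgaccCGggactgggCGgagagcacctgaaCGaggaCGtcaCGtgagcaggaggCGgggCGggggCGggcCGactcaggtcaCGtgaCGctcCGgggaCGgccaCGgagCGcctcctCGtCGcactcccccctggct
The printed Meg3 window held 13 CpG, and a further Meg3 window, not printed, held 1. The Rian window held 0, as 5.43% of all windows did. The Igf2r window held 34, a number reached by 7.73% of windows. Among the windows not printed, the densest was a Grb10 window with 45 CpG, and the other Grb10 window held 9. Plagl1 held 26, Peg3 held 13 and Dlk1 held 9, while the 4 Igf2 windows held 2 to 24. The hexamer TGCCGC, the core of the motif of ZFP57, a protein that guards imprints in the embryo, was searched on both strands and was present in 4 of the 13 windows (Igf2, Plagl1, Grb10 and the printed Meg3 window), against 11.6% of all windows. These matches are a description of the letters.

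H19 is also the host of miR-675, whose mature forms are shown because the host had the largest fold change from estrus among the 9 tested members. Capitals mark the seed, bases 2 to 8. Both lie in the H19 transcript on the minus strand of chromosome 7, the 5p form at chr7:142577112-142577133 and the 3p form at chr7:142577078-142577099 (RefSeq, GRCm38.p6).
miR-675-5p: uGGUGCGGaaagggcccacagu
miR-675-3p: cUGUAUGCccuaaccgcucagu
Their seeds differ from each other. The libraries were total RNA and not small RNA libraries, and the Mir675 gene had 0 counts in all 19 libraries, so the mature forms were not measured. Of 10 small RNA genes listed in these clusters none reached the filter. Mir433, the most counted, had 78 counts over the 19 libraries.

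The first comparison asked how imprinted genes differ between the estrous endometrium and the endometrium on day 3.5 pc after normal mating. H19, Igf2, Cdkn1c, Peg3, Rian, Plagl1, Grb10 and Meg3 were higher in INT, by 25.3-fold for H19 to 1.60-fold for Meg3. Igf2r was not called. A gene was called when the adjusted p (false discovery rate, FDR, Benjamini-Hochberg over all genes tested, edgeR quasi-likelihood test) was at most 0.05 and the log2 fold change (logFC) was past a cutoff equal to 1.5-fold in either direction. By this rule 8 of 9 tested members were higher and 0 lower, where 20.9% of all tested genes were called higher and 33.6% in either direction. The median logFC of the 9 members was 1.19, and that of all tested genes was -0.01. H19 and Igf2 were below 3 CPM in every CONT library and passed the filter through the mated libraries, so they could only differ upwards and their calls say nothing about the members as a group. Of the 7 tested members that reached 3 CPM in CONT, 6 were called higher, with a median logFC of 1.03, beside 15.7% higher and a median of -0.08 over all 15342 tested genes that reached it there. The members were chosen with earlier results of these data known, so these shares and medians are a description and no test of the set. In bulk tissue a change in the share of a cell type and a change in RNA per cell cannot be told apart.

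**Figure D1:**
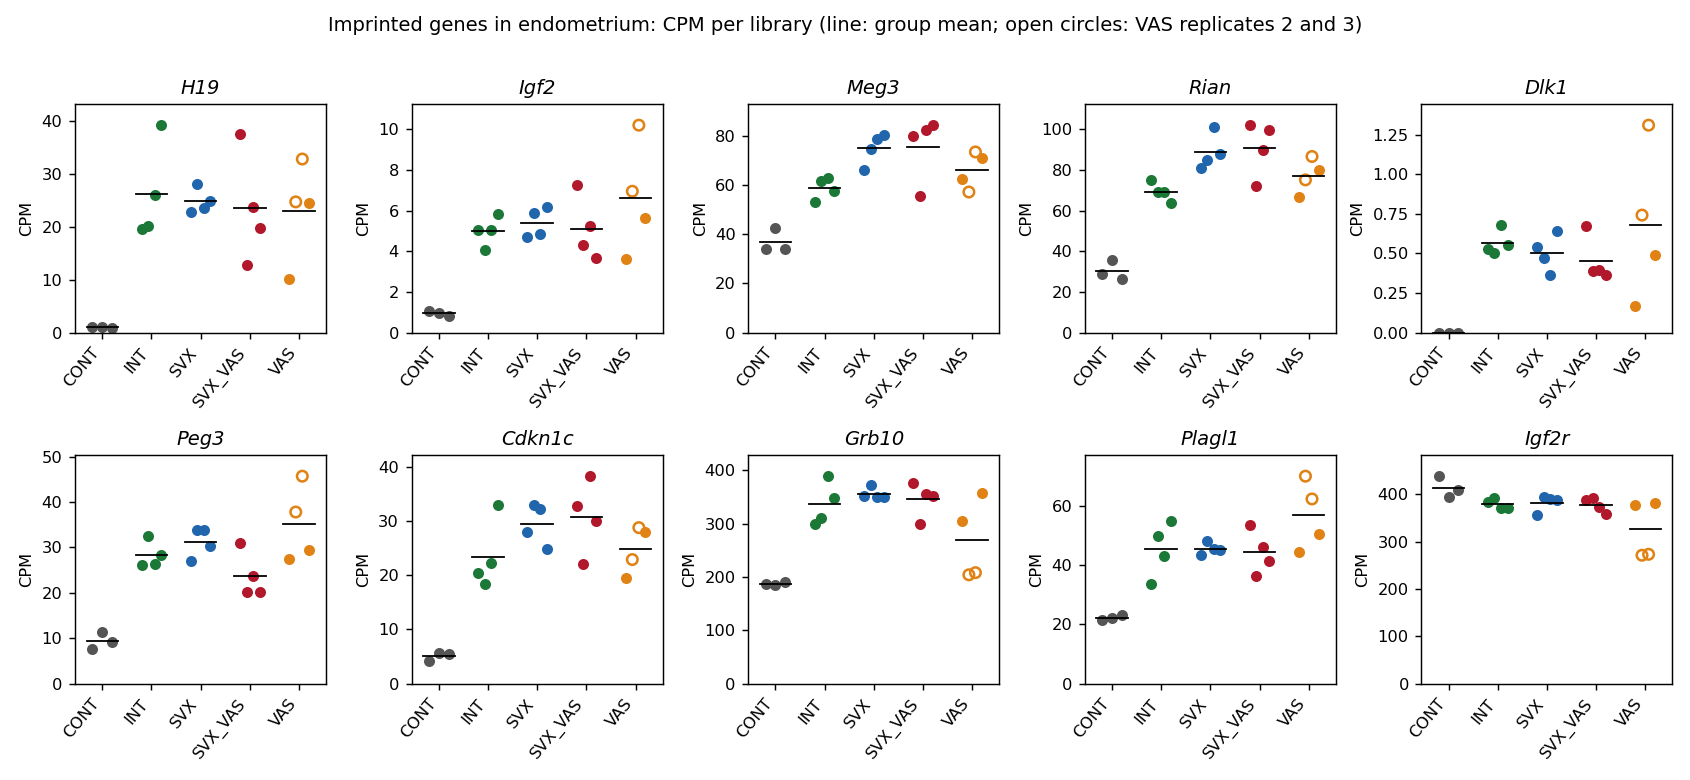
CPM of each imprinted gene (vertical axis, linear from 0) in each library, by group; points are libraries, the line is the group mean, and open circles are VAS replicates 2 and 3. In every panel but that of Igf2r each mated library lies above all CONT libraries, and for Igf2r the groups lie close together apart from the open circles.

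H19 and Igf2 lie on distal chromosome 7 and share enhancers. H19 is a maternally expressed long non-coding RNA of 2372 exonic bases (ENSMUSG00000000031.15, chr7:142575529-142578143, minus strand). Its CPM was 1.12, 1.11 and 0.829 in CONT, from 11 to 31 counts, and 19.5, 20.2, 26 and 39.2 in INT, from 259 to 563 counts. The INT libraries thus lay far above CONT and were spread among themselves about the mean of 26.2 ± 9.11 (SD, n = 4), against 1.02 ± 0.165 (SD, n = 3). The logFC was 4.66 with a standard error of 0.46 (edgeR FDR = 3.09e-06). The short genes Gm27483 and Gm27786 on the opposite strand overlap its exons.
Igf2, the growth factor gene of the pair (ENSMUSG00000048583.16, chr7:142650766-142666816, minus strand), was at 1.06, 0.963 and 0.829 CPM in CONT and at 5.03, 4.07, 5.04 and 5.84 CPM in INT. These are low levels, from 11 to 27 counts in CONT and 65 to 89 in INT, and the groups did not overlap. The logFC was 2.38 with a standard error of 0.32 (edgeR FDR = 2.93e-05). Igf2os runs antisense across Igf2 exons, and Gm49394 overlaps on the same strand, so reads may be shared among them.
Within each library, H19 was set against Igf2 as the log2 ratio of counts with 1 added, a measure that library scaling does not enter. The ratio was 0.089 ± 0.097 in CONT (SD, n = 3) and 2.33 ± 0.325 in INT (SD, n = 4), a difference of 2.24. An exact two-sided permutation test gave p = 0.0571, the smallest that 3 against 4 libraries allow. Both genes passed the filter only through the mated libraries, where they are high, so the ratio is a description and the test gives it no support. All 4 INT libraries, from 1.94 to 2.73, lay above all CONT libraries, from 0 to 0.193, and the other mated groups had means of 2.19, 2.13 and 1.77 in SVX, SVX_VAS and VAS. The VAS replicates 1 and 4, which did not stand apart on the first principal component, were at 1.47 and 2.11.

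Cdkn1c encodes a cyclin-dependent kinase inhibitor (p57KIP2) that is maternally expressed and known in decidualising stroma (ENSMUSG00000037664.13, chr7:143458339-143461050, minus strand). It was at 4.19, 5.67 and 5.5 CPM in CONT. In INT it was at 20.4, 18.3, 22.2 and 32.9 CPM, so the lowest INT library was above 3 times the highest in CONT. Mean CPM went from 5.12 ± 0.808 (SD, n = 3) to 23.4 ± 6.5 (SD, n = 4), a logFC of 2.19 with a standard error of 0.23 (edgeR FDR = 5.00e-06). Gm44732 overlaps its exons on the opposite strand.

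Peg3 encodes a paternally expressed zinc finger protein (ENSMUSG00000002265.16, chr7:6703892-6730431, minus strand). Its levels of 7.68, 11.3 and 9.12 CPM in CONT stood against 26.2, 32.6, 26.3 and 28.3 CPM in INT. Neither group overlapped the other, and the logFC was 1.59 with a standard error of 0.20 (edgeR FDR = 1.48e-05).
Plagl1 (Zac1), a paternally expressed zinc finger transcription factor that binds other imprinted genes (ENSMUSG00000019817.18, chr10:13060504-13131694, plus strand), was at 21.6, 22.0 and 23.3 CPM in CONT and at 33.6, 50, 43 and 55.1 CPM in INT. CONT was tight and INT spread widely, yet the groups did not overlap. The logFC was 1.03 with a standard error of 0.17 (edgeR FDR = 0.000177).

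Meg3 and Rian are maternally expressed long non-coding RNAs of the cluster on distal chromosome 12 that also holds the paternally expressed Dlk1. Meg3 (ENSMUSG00000021268.17, chr12:109541001-109571726, plus strand) was at 34, 42.4 and 34 CPM in CONT and at 53.0, 61.7, 62.7 and 57.6 CPM in INT. The gap between the groups was about as wide as the range within them, and the logFC of 0.67 with a standard error of 0.14 was the smallest among the members called (edgeR FDR = 0.000804). Rian (ENSMUSG00000097451.9, chr12:109603940-109661716, plus strand), the host of many small nucleolar RNAs, was at 28.6, 35.9 and 26.3 CPM in CONT and at 75.2, 69.2, 69.3 and 63.7 CPM in INT. Its logFC was 1.19 with a standard error of 0.13 (edgeR FDR = 6.67e-06).
Rian was thus below Meg3 in every CONT library and above it in every INT library. The log2 ratio of Rian to Meg3 was -0.285 ± 0.073 in CONT (SD, n = 3) and 0.24 ± 0.177 in INT (SD, n = 4). The difference of 0.525 reached the smallest p that an exact two-sided permutation test of 3 against 4 allows, p = 0.0571. INT replicate 1, at 0.505, was the highest, and the other INT libraries were at 0.144 and above. In SVX, SVX_VAS and VAS the means were 0.237, 0.273 and 0.223. VAS replicates 1 and 4 were at 0.092 and 0.17, and 0.092 was the lowest of the mated libraries. Gm26906 overlaps Meg3 exons on the opposite strand.

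**Figure D2:**
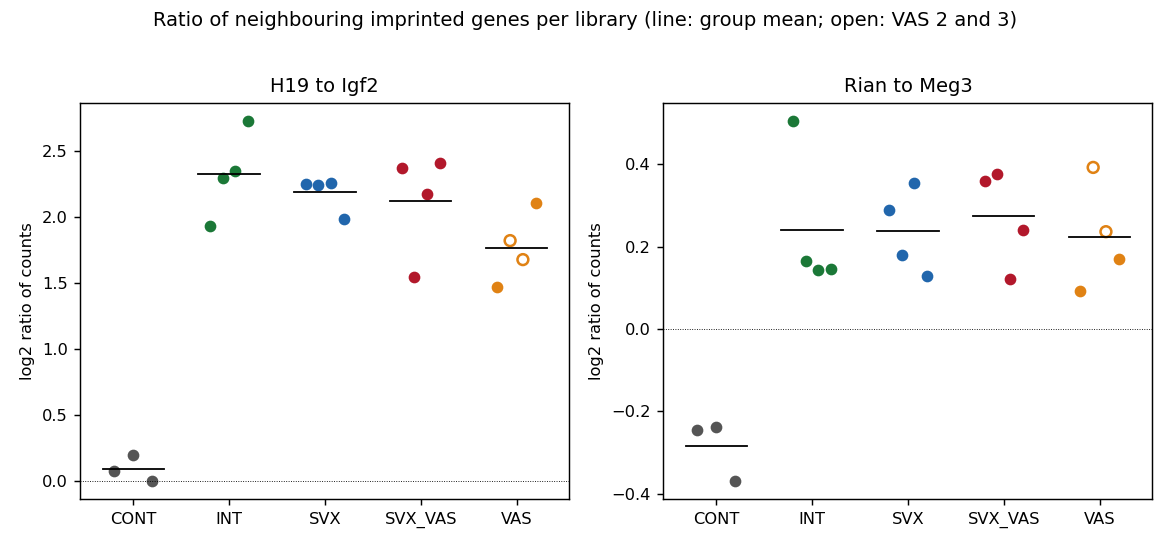
Log2 ratio of counts (vertical axis) of H19 to Igf2 and of Rian to Meg3 in each library, by group; the line is the group mean and open circles are VAS replicates 2 and 3. The CONT libraries lie at 0 to 0.193 for H19 to Igf2 and below 0 for Rian to Meg3, and all mated libraries lie above them in both panels.

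Dlk1 encodes a transmembrane protein related to Notch ligands (ENSMUSG00000040856.17, chr12:109452823-109463336, plus strand). It had 0 counts in each of the 3 CONT libraries. A count of 0 allows up to 3 counts, a mean of 0.17 CPM in CONT. The INT libraries had 7, 8, 12 and 8 counts, a mean of 0.566 CPM, which is at least 3.33-fold higher than that limit. It was at least 2.96-fold higher in SVX, 2.67-fold in SVX_VAS and 3.98-fold in VAS. The VAS libraries had 3, 16, 28 and 7 counts, and without replicates 2 and 3 the bound was 1.94-fold. Without the filter on low counts, Dlk1 passed the test in INT against CONT (edgeR FDR = 0.000196). With 0 counts in CONT it could only come out higher, so the test gives it no support. Floors of this kind cover counting error only.

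Grb10 and Igf2r were the most abundant members in every group. Grb10 encodes an adaptor that damps signalling from the insulin and IGF1 receptors (ENSMUSG00000020176.17, chr11:11930508-12038683, minus strand). Its level was 186, 185 and 191 CPM in CONT and 299, 310, 389 and 348 CPM in INT, with no overlap and a logFC of 0.84 with a standard error of 0.17 (edgeR FDR = 0.000625).
Igf2r encodes the receptor that takes IGF2 into the cell for breakdown (ENSMUSG00000023830.13, chr17:12682406-12769664, minus strand). It was at 438, 393 and 409 CPM in CONT and at 383, 391, 370 and 370 CPM in INT. The groups did not overlap by a narrow margin, which was also so for 62.3% of all tested genes in either direction. The logFC was -0.13 with a standard error of 0.11 and a 95% interval of -0.371 to 0.115, and the test was not passed (edgeR FDR = 0.387). Its sign was the opposite in TPM (transcripts per 1000000, computed from the counts and exon lengths), with a mean of 137 in INT and 132 in CONT. TPM was computed without the library scaling factors used for CPM. The exon length of a gene is the same in every library, so the scales differ here in library scaling.

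Levels of different genes are compared per length. In CONT the mean TPM ran from Igf2r at 132 and Grb10 at 62.1, through Plagl1 at 8.59, Cdkn1c at 7.57, Meg3 at 6.14, Rian at 5.23, Peg3 at 2.12 and H19 at 1.29, to Igf2 at 0.501 and Dlk1 at 0. Plagl1 and Cdkn1c, Cdkn1c and Meg3, and Meg3 and Rian differed by less than the sum of their SDs. In INT, Igf2r at 137 ± 2.45 and Grb10 at 127 ± 18.8 (SD, n = 4) did not differ beyond their spread, nor did Cdkn1c at 39.3 ± 11.4 and H19 at 37.8 ± 13.7 (SD, n = 4), and Plagl1 at 19.9 ± 4.29 lay within the summed SDs of H19. Below them came Rian at 13.5, Meg3 at 11.1, Peg3 at 7.26, Igf2 at 2.98 and Dlk1 at 0.342. H19 moved from place 8 of 10 to place 4, and the order in SVX, SVX_VAS and VAS was the same as in INT, also for VAS without replicates 2 and 3.

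Among the neighbours of the members, the test gave different results from gene to gene. In the H19-Igf2 and Kcnq1 clusters 7 of 11 listed neighbours were tested, with 0 higher and 1 lower. Kcnq1, a potassium channel subunit, was lower, with 47.8, 53.3 and 49.3 CPM in CONT and 27.2, 26.4, 16.3 and 16.3 CPM in INT (logFC -1.22, standard error 0.25, edgeR FDR = 0.000941). Kcnq1ot1, the antisense RNA that silences the paternal copies of this cluster, was at 1400 to 1580 CPM in CONT and 1410 to 1530 CPM in INT, with a logFC of -0.05 and a standard error of 0.11 (edgeR FDR = 0.783). Kcnq1ot1 and Kcnq1 overlap in their exons on opposite strands. Cd81, Tssc4, Slc22a18, Nap1l4 and Osbpl5 were not called, with logFC from -0.38 (Slc22a18) to 0.11 (Osbpl5). Ins2, Igf2os, Ascl2 and Phlda2 were below the filter, which says only that they were too low to test.
In the Dlk1-Meg3 cluster 3 of 5 listed neighbours were tested. Begain, at the edge of the cluster, was higher, from 0.295, 1.03 and 0.603 CPM in CONT to 5.11, 6.51, 16 and 9.95 CPM in INT (logFC 3.81, standard error 0.43, edgeR FDR = 6.79e-06). Begain was below 3 CPM in every CONT library, so, like H19 and Igf2, it could only be called higher. Mirg, a microRNA host downstream of Rian, was also higher, from 3.16 to 3.54 CPM in CONT to 6.12 to 8.04 CPM in INT (logFC 1.07, standard error 0.19). Rtl1, a retrotransposon-derived gene expressed from the paternal copy, was not called (logFC 1.27, standard error 1.05), and Dio3 was below the filter.
Next to Grb10, Cobl was higher (logFC 1.13, standard error 0.22, edgeR FDR = 0.000608), while Ddc was below the filter. Airn, the paternally expressed RNA that runs through Igf2r and silences it on that copy, was higher, with 31.1, 35.5 and 32.2 CPM in CONT and 48.2, 51.6, 53.7 and 51.6 CPM in INT (logFC 0.64, standard error 0.09, edgeR FDR = 3.29e-05). Slc22a2 and Slc22a3, beside Igf2r, were below the filter, as were Usp29, Zim1 and Zfp264, the listed neighbours of Peg3 found in the table.

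**Figure D3:**
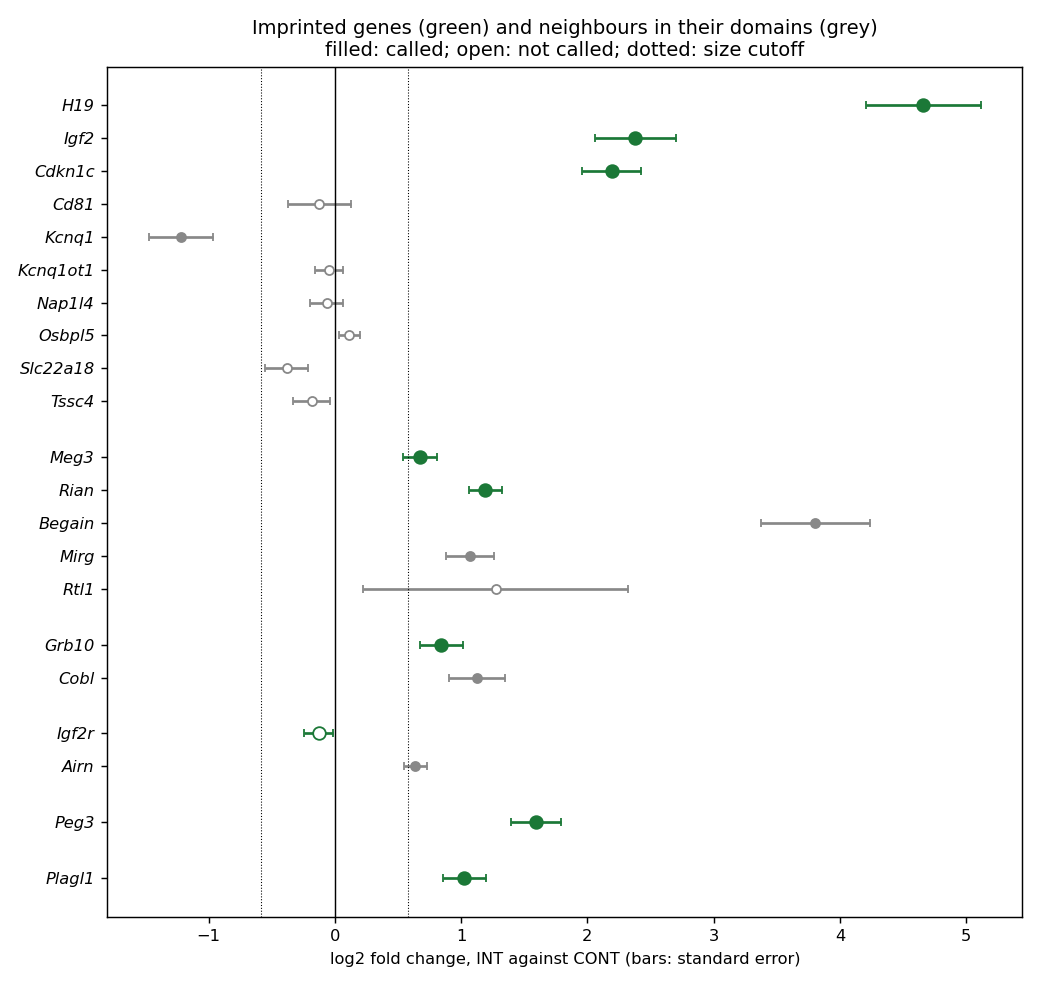
Log2 fold change of INT against CONT (horizontal axis) for the tested imprinted members (green) and the tested neighbours in their clusters (grey); bars are standard errors, filled points were called, open points were not, and dotted lines mark 1.5-fold in either direction. H19 at 4.66 and Begain at 3.81 lie furthest right and Kcnq1 at -1.22 furthest left.

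Other imprinted genes of the mouse were taken from a list of 60 that left out the members and included the neighbours above. In INT against CONT, 58 were in the table, 41 were tested, 12 were higher, 2 were lower and 27 were not called. Their median logFC was 0.06, near the -0.01 of all tested genes, and 12 of 41 higher stands beside the 20.9% of all tested genes. Of the 41, 7 were below 3 CPM in every CONT library and could only be called higher, and 4 of these were (Begain, Peg12, Sfmbt2 and Tfpi2). Of the other 34, 8 were higher and 2 lower, with a median logFC of -0.06, beside the 15.7% higher among all tested genes that reached 3 CPM in CONT. Mest, a hydrolase-like gene of chromosome 6, was at 10.7, 10.8 and 9.64 CPM in CONT and 51.0, 52.7, 89.5 and 90.4 CPM in INT (logFC 2.77). Peg12 (logFC 2.72), Sfmbt2, a Polycomb protein gene (logFC 2.31), and Ndn, a necdin gene of the Prader-Willi region (logFC 1.56), were the next largest outside the clusters of the members. Rasgrf1, a Ras exchange factor, was lower (logFC -1.12, standard error 0.34, edgeR FDR = 0.0129). Mest shares exonic sequence with Copg2 on the opposite strand.
In the other mated groups against CONT, 13 of the 41 were higher and 5 lower in SVX, 11 and 3 in SVX_VAS, and 13 and 3 in VAS, or 15 and 1 without VAS replicates 2 and 3. Over all tested genes the shares higher and lower were 23.1% and 18.5% in SVX, 22.2% and 16.5% in SVX_VAS, and 23.3% and 17.3% in VAS, or 23.4% and 12.5% without the pair. Among the 34 that reached 3 CPM in CONT, 9, 7 and 8 were higher in SVX, SVX_VAS and VAS, where 17.8%, 16.9% and 17.8% of all tested genes that reached it were.

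The partners of the members in insulin-like growth factor (IGF) signalling and growth control formed a list of 18 genes, of which 16 were tested. In INT 6 were higher and 2 lower, where 20.9% and 12.7% of all tested genes were, with a median logFC of 0.15. Igf1, the second IGF ligand, was at 100, 155 and 119 CPM in CONT and at 826, 580, 903 and 963 CPM in INT (logFC 2.71, standard error 0.32, edgeR FDR = 1.01e-05). The binding proteins Igfbp3 (logFC 2.47, standard error 0.57) and Igfbp4 (logFC 1.57, standard error 0.41) and the receptor substrate Irs2 (logFC 1.07, standard error 0.25) were also higher. The signalling receptors Igf1r (logFC 0.11, standard error 0.14) and Insr (logFC 0.15, standard error 0.10) were not called. Igf2bp2, an RNA-binding protein gene, was lower (logFC -1.46, standard error 0.37), and so was Plagl2, a paralogue of Plagl1 (logFC -0.76, standard error 0.16). Cdkn1a (logFC -0.83, standard error 0.54) and Cdkn1b (logFC -0.54, standard error 0.12), the relatives of Cdkn1c, were not called in INT. Against CONT 6 of the 16 were higher and 4 lower in SVX (23.1% and 18.5% of all tested genes), 6 and 3 in SVX_VAS (22.2% and 16.5%), and 4 and 1 in VAS (23.3% and 17.3%), or 6 and 2 in VAS without VAS replicates 2 and 3 (23.4% and 12.5%). Cdkn1b was called lower in SVX (logFC -0.64, edgeR FDR = 0.000235) and in SVX_VAS (logFC -0.63, edgeR FDR = 0.000319) and had a logFC of -0.58 in VAS, which was not called. Cdkn1a was called lower in SVX (logFC -1.72, edgeR FDR = 0.0132), and its logFC of -0.48 in SVX_VAS and -0.56 in VAS was not called.
Of 13 genes that set, keep or remove DNA methylation or bind at imprints, 11 were tested, 2 were higher and 0 lower (20.9% and 12.7% of all tested genes), with a median logFC of 0.10. Tet1, which oxidises methylated cytosine, was at 6.5, 9.92 and 13 CPM in CONT and at 41.4, 48.1, 57.4 and 67.1 CPM in INT (logFC 2.45). Zfp57 was at 10.3, 18.0 and 14.5 CPM in CONT and at 23.8, 29.3, 45.4 and 37.6 CPM in INT (logFC 1.25). Dnmt1 (logFC 0.10, standard error 0.27) and Trim28 (logFC -0.05, standard error 0.26) were not called.

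**Figure D4:**
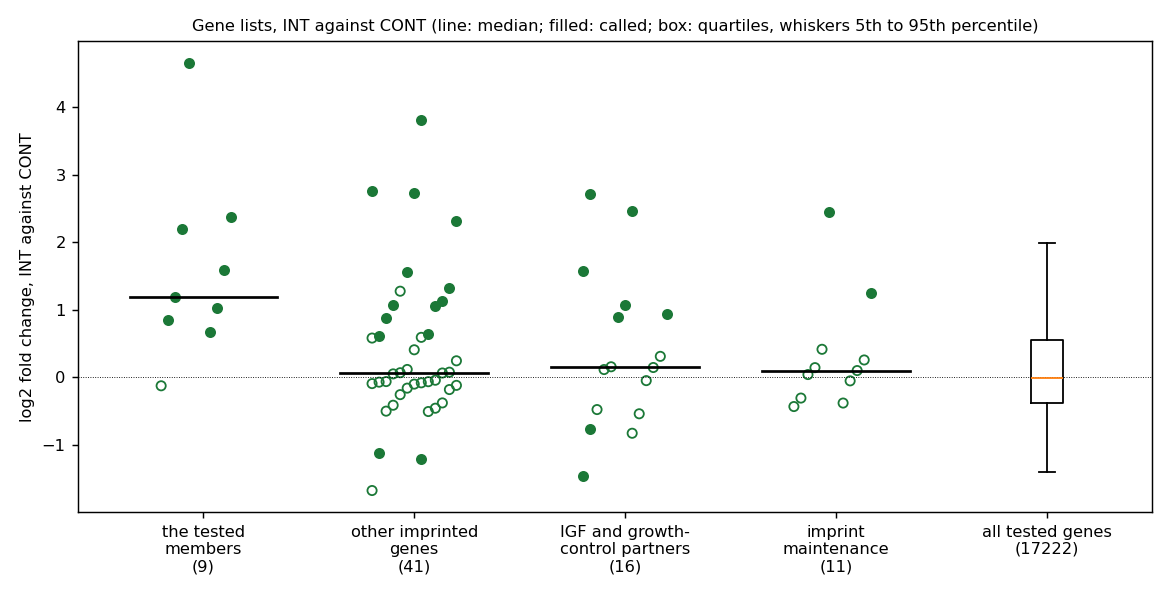
Log2 fold change of INT against CONT (vertical axis) for each tested gene of 4 lists, with filled points called and open points not called; the line is the list median, and the box shows quartiles and the 5th to 95th percentiles of all 17222 tested genes. The 9 members have a median of 1.19, while the medians of the other lists lie at 0.06 to 0.15. The 9 include H19 and Igf2, which could only be higher. Among genes that reached 3 CPM in CONT, the median is 1.03 for 7 members and -0.06 for 34 other imprinted genes. Members and lists were chosen with earlier results of these data known.

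The second comparison asked whether the males' seminal fluid and sperm bore on these genes, by setting the 4 mated groups beside each other. Each was first compared with the same 3 CONT libraries, so the comparisons share their controls. In SVX 8 of 9 tested members were called, all higher (23.1% of all tested genes higher, 41.6% in either direction). In SVX_VAS 8 of 9 were called higher (22.2% and 38.6%). In VAS 7 of 9 were called higher and 0 lower (23.3%, 17.3% and 40.6% of all tested genes higher, lower and in either direction), or 8 of 9 higher and 0 lower without VAS replicates 2 and 3 (23.4% and 12.5% of all tested genes). H19 and Igf2 are among those called in each group and could only be called higher. Of the 7 tested members that reached 3 CPM in CONT, 6, 6 and 5 were called higher in SVX, SVX_VAS and VAS. Of all tested genes that reached it, 17.8%, 16.9% and 17.8% were called higher. These counts too are a description, as the members were chosen with earlier results of these data known. The libraries of 8, 9 and 9 of the 9 members did not overlap those of CONT in SVX, SVX_VAS and VAS, as for 70.9%, 67.5% and 55% of all tested genes, and 8 members were above CONT without overlap in each, as for 35.2%, 33.5% and 26.7%. Without VAS replicates 2 and 3, 8 tested members lay above CONT and 1 below without overlap, as did 33.5% and 33.6% of all tested genes. H19 and Igf2 are among the 8 above CONT each time. Being below 3 CPM in every CONT library, these genes could only differ upwards, so the counts without overlap are a description. H19 had a logFC of 4.66, 4.58, 4.50 and 4.47 in INT, SVX, SVX_VAS and VAS, and Cdkn1c one of 2.19, 2.52, 2.58 and 2.27. Igf2 stood at 2.38, 2.49, 2.41 and 2.78, Peg3 at 1.59, 1.74, 1.34 and 1.90, and Rian at 1.19, 1.55, 1.58 and 1.35. The logFC of Meg3 was 0.67, 1.03, 1.04 and 0.84, that of Plagl1 1.03, 1.03, 0.99 and 1.35, and that of Grb10 0.84, 0.92, 0.88 and 0.52. Without VAS replicates 2 and 3 the VAS values were 4.09 for H19, 2.25 for Cdkn1c, 2.30 for Igf2, 1.64 for Peg3, 1.32 for Rian, 0.90 for Meg3 and 1.13 for Plagl1, all called.

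**Figure D5:**
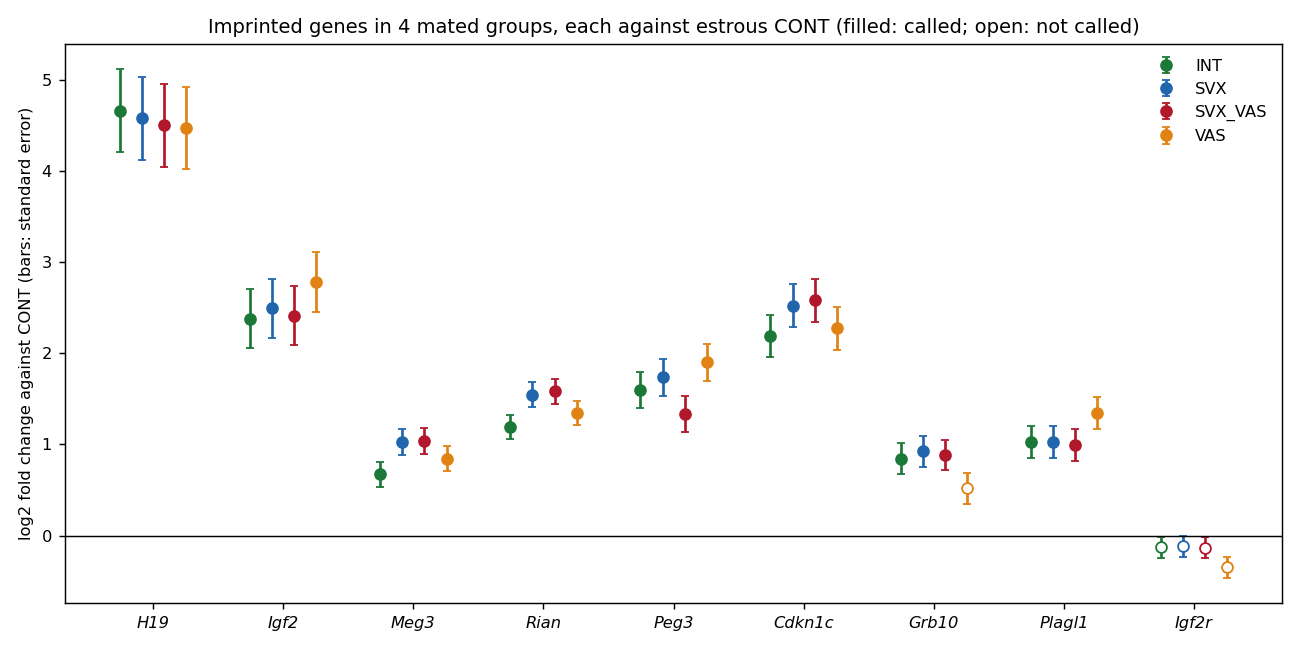
Log2 fold change against CONT (vertical axis) of the 9 tested imprinted genes in the 4 mated groups; bars are standard errors, and open points were not called. The 4 groups lie close together for most genes, with H19 near 4.5 in each and Grb10 at 0.52 in VAS.

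Grb10 was not called in VAS against CONT, because its logFC of 0.52 was under the size required (standard error 0.17, edgeR FDR = 0.0137). Its CPM was 305, 204, 208 and 357 in VAS replicates 1 to 4, so on this scale the low values belonged to the replicates that stood apart, and without those 2 libraries the logFC was 0.86 (edgeR FDR = 3.85e-05). Igf2r was at 378, 271, 273 and 381 CPM in VAS and showed the same pair of low values. Both patterns held in CPM and not in TPM. For a given gene these scales differ between libraries only in library scaling. The scaling factors used for CPM were 1.29 and 1.329 in the pair and 0.8478 to 0.8822 in CONT. Grb10 was at 127 and 132 TPM in the pair, within the 109 to 155 TPM of the other mated libraries. Igf2r was at 162 and 167 TPM in the pair, above the 126 to 154 TPM of the other mated libraries, and its VAS libraries, at 139 to 167 TPM, lay above those of CONT (128 to 138 TPM), so its direction in VAS turned between the scales. On the CPM scale of the test its logFC was -0.34 (edgeR FDR = 0.017), under the size required, and -0.08 without the pair (edgeR FDR = 0.369). Peg3, Plagl1 and the low-count Dlk1 were high in these libraries on both scales. Peg3 was at 37.8 and 45.7 CPM there against 20.1 to 33.9 CPM in the other mated libraries, and Plagl1 at 62.4 and 70.1 CPM against 33.6 to 55.1 CPM. On the TPM scale Peg3 was at 16.1 and 19.8 TPM against 5.14 to 8.99 TPM, and Plagl1 at 46.1 and 50.7 TPM against 14.2 to 25.7 TPM. Dlk1, from 16 and 28 counts in the pair, was at 0.742 and 1.31 CPM against 0.168 to 0.68 CPM. On the TPM scale it was at 0.742 and 1.34 TPM against 0.103 to 0.444 TPM.

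Against INT, 0 of 9 members were called in SVX, in SVX_VAS and in VAS, as were 0% of all tested genes (edgeR). At an unadjusted p under 0.05 there were 2 members in SVX, 2 in SVX_VAS and 1 in VAS, with 749, 339 and 1831 of all tested genes. Over the 4 mated groups together 0 of 9 were called, the lowest member FDR was 0.635, and 3 members had an unadjusted p under 0.05, as had 1213 of all tested genes. By DESeq2 and by limma-voom the count of members called was also 0 in each of these 4 comparisons, as it was in edgeR without VAS replicates 2 and 3. Of all tested genes DESeq2 called 3, 2, 0 and 11 in the 4 comparisons, and limma-voom 0, 0, 1663 and 1374. The members with an unadjusted p under 0.05 were Rian and Meg3 in SVX and in SVX_VAS, Grb10 in VAS, and Rian, Meg3 and Peg3 over the 4 groups. Grb10 had a logFC of -0.33 in VAS against INT (unadjusted p = 0.0459, edgeR FDR = 0.452), which was -0.01 without VAS replicates 2 and 3. Peg3 had group means of 28.4, 31.3, 23.7 and 35.1 CPM in INT, SVX, SVX_VAS and VAS (unadjusted p = 0.0332 over the 4 groups in edgeR, FDR = 0.635). Rian was at 80.9, 84.9, 101.0 and 88.0 CPM in SVX, at 102.0, 72.3, 89.7 and 99.6 in SVX_VAS and at 66.8, 75.1, 86.6 and 80.0 in VAS, beside 63.7 to 75.2 in INT. Its SVX libraries lay above all INT libraries, while those of SVX_VAS and VAS overlapped with INT. Meg3 in SVX, at 66.2 to 80.4 CPM, also lay above all INT libraries, at 53.0 to 62.7 CPM. The share of all tested genes without overlap was not counted for SVX against INT, so this is a description. The logFC of Rian against INT was 0.35 in SVX, with a 95% interval of 0.10 to 0.607. In SVX_VAS it was 0.39, with an interval of 0.138 to 0.645 (edgeR FDR = 1.0 in both). For Meg3 the logFC against INT was 0.35 (0.090 to 0.620) in SVX and 0.36 (0.099 to 0.629) in SVX_VAS. H19 differed from INT by -0.08 in SVX, with an interval of -0.782 to 0.625.

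The mean level of H19 lay between 23.0 and 26.2 CPM in the 4 mated groups, with SDs of 2.30 to 10.5, and the VAS mean of 23.0 CPM became 17.3 CPM without VAS replicates 2 and 3. It was at 22.8, 28.1, 23.6 and 24.8 CPM in SVX, at 37.6, 12.7, 23.8 and 19.7 CPM in SVX_VAS and at 10.2, 24.7, 32.8 and 24.4 CPM in VAS. The lowest of the 16 mated libraries were VAS replicate 1 at 10.2 CPM and SVX_VAS replicate 2 at 12.7 CPM, both still above the highest CONT library at 1.12 CPM. Estrogen-response genes varied among the same libraries. Their summed level was 13800 to 16400 CPM in CONT and 207 to 10400 CPM in the mated libraries, where it was highest in INT replicate 1 at 10400, SVX_VAS replicate 2 at 10300, INT replicate 2 at 4080 and VAS replicate 1 at 3250 CPM. H19 in these 4 was at 19.5, 12.7, 20.2 and 10.2 CPM, and Igf2 at 5.03, 4.30, 4.07 and 3.64 CPM. The part of the estrogen-response genes in the result was not tested. In INT against CONT 1 of these 6 genes was called lower and 0 higher, with a list median logFC of -2.04. In SVX 6 of 6 were called lower (list median -5.49), in SVX_VAS 1 (-2.26) and in VAS 2 (-3.60), or 0 without VAS replicates 2 and 3 (-3.05), and 0 were called higher in each.

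Markers of cell types moved with the same contrast. Of 7 epithelial markers 5 were lower in INT than in CONT and 0 higher, with a summed level of 630 to 2470 CPM in INT and 3710 to 5090 CPM in CONT. Of 8 stromal markers 6 were higher and 0 lower, at 6800 to 8140 CPM against 4390 to 4670 CPM. All 6 endothelial markers were higher, at 512 to 793 CPM against 132 to 197 CPM. Of 7 smooth muscle markers 1 was higher, at 411 to 1280 CPM against 319 to 727 CPM, of 5 macrophage markers 3 were higher and 1 lower, at 283 to 376 against 126 to 222 CPM, and of 5 red blood cell markers 4 were higher, at 54.9 to 95.4 against 27.1 to 39.0 CPM. The part of these cell types in the levels of the imprinted genes was not tested. Of 5 neutrophil markers 1 passed the filter and was lower, and the summed level was 2.02 to 6.14 CPM in INT and 9.94 to 11.9 CPM in CONT. Of 5 mesothelium and fat markers 2 were tested and 0 called, at 16.5 to 21.9 against 26.6 to 28.5 CPM, and of 6 proliferation markers 0 were called, at 628 to 1330 against 1070 to 1880 CPM. Of 7 progesterone-response genes 5 were higher, of which 3 (Areg, Calca and Ihh) were below 3 CPM in every CONT library and could only be called higher, and 1 was lower, while their sum was 277 to 387 CPM in INT and 389 to 456 CPM in CONT, since the lower gene, Lifr, was the most abundant. In the other mated groups against CONT, 6 of 7 epithelial markers were lower in SVX, in SVX_VAS and in VAS, or 2 in VAS without replicates 2 and 3. Stromal markers were higher in 6, 6 and 4 of 8 cases, or 7 in VAS without the pair, and all 6 endothelial markers were higher in each. Of the 6 proliferation markers 1, 4 and 1 were lower in SVX, SVX_VAS and VAS, or 0 in VAS without the pair, and those lower in SVX_VAS were Ccnb1, Cdk1, Birc5 and Mki67. Macrophage markers were higher in 4, 3 and 3 of 5 cases with 1 lower in each, and red blood cell markers in 5, 4 and 4 of 5, or 5 in VAS without the pair. Of 7 smooth muscle markers 1, 1 and 0 were higher, or 1 in VAS without the pair. Both tested mesothelium and fat markers were lower in SVX, and 0 in SVX_VAS and VAS, or 2 in VAS without the pair. The part of these markers in the results of these groups was not tested.
Embryos express many of these imprinted genes, so blastocyst markers were also counted. Of 8 such markers 1, Eomes, passed the filter and was higher in INT, and the summed level was 6.16 to 9.46 CPM in INT and 2.72 to 5.21 CPM in CONT. Cdx2, Pou5f1 and Zfp42 had 0 counts in every CONT and INT library, and Nanog and Tdgf1 had at most 2. Eomes, which natural killer cells also express, was at 1.74 ± 0.825 CPM in CONT (SD, n = 3) and 5.36 ± 1.43 CPM in INT (SD, n = 4), where it made up most of the sum. With its CONT level below 3 CPM, Eomes passed the filter through the mated libraries and could only be called higher.

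Genes with the most similar pattern to each member were named by Pearson correlation of log2 CPM over the 19 libraries. These values are mostly set by the step from CONT to mated libraries, which many genes share, and are a description. Tex15, Cpxm2 and Cd109 stood nearest to H19 (r = 0.986 to 0.984), Pkdrej, Col11a1 and Rragb to Igf2 (0.977 to 0.976), Tada2a, Ube2ql1 and Sccpdh to Cdkn1c (0.985 to 0.983), and Hdac9, Tmx4 and Map7d3 to Peg3 (0.974 to 0.964). Meg3 was the single case in which another member was among the nearest 3, with Hip1 (0.955), Rian (0.954) and Atp8b2 (0.948). For Rian they were Csf2rb, Grid2ip and Agk (0.966 to 0.964), for Grb10 Fkbp9, Fn1 and 5430405H02Rik (0.985 to 0.982), and for Plagl1 Sept6, Zfp61 and Zfp39 (0.975 to 0.964). The nearest to Igf2r were Eif3h, Sptan1 and 4930422M22Rik (0.973 to 0.971), and without VAS replicates 2 and 3 these fell to 0.805, 0.808 and 0.791.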

How the data were processed

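Endometrium of 19 pools was sequenced as stranded total RNA (paired ends). Per the labels and the study's methods, the authors aligned reads with STAR to GRCm38/mm10 and deposited raw counts per gene from featureCounts, with no normalization. The strand setting and annotation release are not given in the sources used here, so overlapping genes on opposite strands may share reads. Gene symbols and positions came from GENCODE (GRCm38) and matched 48349 of 49089 genes.

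Counts were analysed in R 4.3.3 with edgeR 4.0.16: TMM scaling, 1 quasi-likelihood fit over 5 groups without a replicate block, with genes kept where 3 or more of 19 libraries reached 3 CPM. CPM uses TMM-adjusted library sizes. Calls needed FDR at most 0.05 over all tested genes and a change of 1.5-fold. Intervals of logFC used the degrees of freedom of the quasi-likelihood test. TPM was computed from counts and exon lengths, without TMM factors. On simulated counts for INT against CONT over 17222 genes, 145 of 200 genes changed 3-fold were recovered (72.5%), with 4 false calls. Only these 200 genes were changed, in INT alone, while 33.6% of tested genes were called in the data. The simulation therefore does not test the scaling under changes of that extent. No library pair within a group agreed within sampling noise (chi-square per degree of freedom 3.12 to 146). The study calls its pools biological replicates, but the labels do not say which animals entered each, so p-values measure the spread between these pools.

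Members were named throughout. Of the other lists, every cluster neighbour and the 4 largest called rises and falls were named, with the 3 most correlated genes for likeness. The members and lists were chosen with earlier results of these data known. Alternatives were DESeq2 1.42.0, limma-voom (limma 3.58.1), other size factors, other filters, a replicate block, the compared groups alone and leaving out libraries. Python 3.11.15 made the figures. Sequences are from RefSeq.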

Additional observations from a re-analysis of the deposited data

Results flagged for a closer look

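In each group of 4 mated libraries, a library whose gap to its nearest neighbour took most of the group's range (Dixon's test, 95% level) was looked for among the 10 genes. Of 40 groups searched 4 held such a library, where chance gives about 1 in 20, or 2. Meg3 in SVX_VAS was 55.7 CPM in replicate 2 and 79.8 to 84.4 CPM in the others. Dlk1 in SVX_VAS was 0.672 CPM in replicate 1, from 14 counts, and 0.365 to 0.393 CPM in the others. Grb10 in SVX was 372 CPM in replicate 2 and 349 to 352 CPM in the others. Igf2r in SVX was 356 CPM in replicate 1 and 388 to 394 CPM in the others. The causes were not tested.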

How the results depend on the processing

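Every count of members called stayed within 1.5 times its value under all alternatives: 8 to 9 in INT against CONT and 7 to 8 in VAS against CONT. Dlk1, which could only be called higher, was added where no filter was used. In VAS, Grb10 was added by upper quartile scaling (logFC 0.71, FDR = 0.00126) or by leaving out VAS replicate 2 or 3. In INT against CONT the direction and call of the 9 tested members held in 17 alternatives each, with H19 from 4.40 to 4.80, Meg3 from 0.609 to 0.804 and Igf2r from -0.179 to -0.001. Upper quartile scaling moved the median logFC of all genes from -0.01 to 0.116, and in VAS against CONT the split from 4006 higher and 2979 lower to 4955 and 2077. Replicate numbers were not used to pair libraries in the main fit. Of 36 same-number pairs of libraries from different groups, 15 had a correlation over 0.1. The median correlation was 0.047 in the 36 pairs and -0.034 in pairs with different numbers. With the replicate block 5606 genes and 8 members were called in INT against CONT, beside 5791 genes and 8 members without it. Counts over all genes between mated groups depended on the tool. DESeq2 called 3 genes in SVX and 2 in SVX_VAS against INT and 11 over the 4 mated groups, limma-voom called 1663 in VAS against INT and 1374 over the 4, and edgeR without VAS replicate 1 or 4 called 578 or 135 in VAS against INT and 127 over the 4 without VAS replicate 4, beside 0 in each; the cause was not tested. Leaving out VAS replicates 2 and 3 together was chosen after seeing the data. Low counts limit Igf2, H19 in CONT and Dlk1.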
